A study of Mus musculus with 10 samples.

Results

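The prostanoid receptors were followed as 8 genes, Ptgir, Ptgdr, Ptger1, Ptger2, Ptger3, Ptger4, Ptgfr and Tbxa2r, chosen by symbol from the 24421 gene symbols of the count tables. All 8 were listed in every table, and 7 of the 8 had at least 1 read in at least 1 pool. The measurement was RNA sequencing of pools of individually picked mouse vagal sensory neurons, with 5 groups of 2 replicate pools each. In the Trpv1-tdTomato selection, red fluorescent neurons of Trpv1-tdTomato mice formed pools of 30 nodose cells (Trpv1-positive nodose) and 30 jugular cells (Trpv1-positive jugular), and nodose neurons without fluorescence formed pools of 15 cells (Trpv1-negative nodose). In these mice Cre under control of Trpv1 switches on the red reporter tdTomato for good, so a red cell expressed Trpv1 at some time and need not express it when picked. In the capsaicin selection, wild-type C57BL/6 neurons were picked after calcium imaging. The capsaicin-sensitive nodose pools (14 and 15 cells) had responded to the TRPV1 agonist capsaicin and to the P2X agonist α,β-methylene ATP, and the capsaicin-sensitive jugular pools (15 and 16 cells) to capsaicin alone. The age and sex of the mice were not given in the sources used here.

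Prostanoids are lipid mediators made from arachidonic acid by cyclooxygenase and a terminal synthase, and act on G-protein coupled receptors. The IP receptor (Ptgir) binds prostacyclin, DP (Ptgdr) binds prostaglandin D, the EP receptors (Ptger1 to Ptger4) bind prostaglandin E, FP (Ptgfr) binds prostaglandin F and TP (Tbxa2r) binds thromboxane. IP, DP, EP2 and EP4 couple to Gs and raise cAMP, EP1, FP and TP couple mainly to Gq and calcium, and EP3 couples mainly to Gi. On sensory neurons, receptors of this family are known for lowering the threshold of nociceptors, in part through kinases that act on TRPV1 and sodium channels.

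Ptgir (chr7:16906490-16910905, plus strand), Ptgdr (chr14:44851235-44859375, minus strand) and Ptger4 (chr15:5206661-5244187, minus strand) were the receptor genes that reached 10 CPM in both pools of at least 1 group, and the results turn on them. The 250 bases before each RefSeq gene start are shown on GRCm38.p6 (mm10), 5′ to 3′ on the strand of the gene, because these 3 genes had different patterns over the ganglia. The windows are chr7:16906240-16906489 for Ptgir, chr14:44859376-44859625 for Ptgdr and chr15:5244188-5244437 for Ptger4. Both strands were searched for 4 motifs, none of which contains another, and capitals mark the matches. The letters searched were GGGCGG for the GC box, which binds factors of the Sp family, and CCAAT for the box named after its own letters. Further letters were TGACGTCA for the cAMP response element, which binds CREB, and TATAAA for the TATA box.
Ptgir: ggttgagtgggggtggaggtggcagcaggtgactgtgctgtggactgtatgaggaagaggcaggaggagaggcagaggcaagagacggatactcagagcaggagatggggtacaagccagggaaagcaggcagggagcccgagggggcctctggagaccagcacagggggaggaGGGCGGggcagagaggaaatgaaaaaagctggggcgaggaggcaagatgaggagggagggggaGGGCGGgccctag
Ptgdr: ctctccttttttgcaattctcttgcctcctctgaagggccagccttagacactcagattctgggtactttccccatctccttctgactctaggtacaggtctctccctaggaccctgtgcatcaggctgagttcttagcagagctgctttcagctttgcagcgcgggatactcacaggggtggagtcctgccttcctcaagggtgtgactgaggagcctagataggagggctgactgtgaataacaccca
Ptger4: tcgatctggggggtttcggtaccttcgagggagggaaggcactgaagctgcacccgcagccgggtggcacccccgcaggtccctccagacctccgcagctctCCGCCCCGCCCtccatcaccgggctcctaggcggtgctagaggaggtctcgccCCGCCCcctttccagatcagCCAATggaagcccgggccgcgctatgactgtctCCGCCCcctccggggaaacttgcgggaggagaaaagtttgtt
The Ptgir window held 2 GC boxes, at 76 and 13 bases before the start. The Ptger4 window held 4 GC boxes on the opposite strand, of which 2 overlap by a base, and 1 CCAAT box at 75 bases before the start. None of the 4 motifs was in the Ptgdr window, which says only that these letters are not in these 250 bases. Of 32851 windows of this length, 32.7% held a GC box, 33.8% a CCAAT box, 12.4% a TATA box and 1.55% a cAMP response element.

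The total count on genes was 148452506 to 167704327 in the 6 pools of the Trpv1-tdTomato selection and 17666710 to 30810863 in the 4 pools of the capsaicin selection. CPM, the depth-normalized read count, is the count divided by the DESeq2 size factor of its pool (over all 10 pools) and scaled by the geometric mean of the totals. A value of 3 counts, taken as the floor, was 0.01436 to 0.01913 CPM in the first selection and 0.1458 to 0.2174 CPM in the second. The selections also differ in sequencing core, mouse strain and depth, and the parts of these cannot be told apart. Neuronal markers summed to 6586 to 15190 CPM with 6 of 6 detected in every pool. Of the nodose markers, P2rx2 was at 76.1 to 679 CPM in nodose pools and at or under 0.292 CPM in jugular pools, and Hoxb5 was at 289 to 517 CPM in nodose pools and at or under 0.243 CPM in jugular pools. The 3 jugular markers (Prdm12, Tac1 and Gfra3) summed to 410.7 to 1615 CPM in jugular pools and 0.3111 to 1.543 CPM in nodose pools. Both ganglion labels were therefore matched by their markers in all 10 pools. Trpv1 itself was at 22.1 to 307 CPM in the 8 pools of Trpv1-positive and capsaicin-sensitive neurons and at 0.0413 and 0.0431 CPM in the Trpv1-negative pools. RNA of satellite glia and Schwann cells was present throughout, with 5 to 8 of 8 markers detected and a sum of 1039 to 2298 CPM per pool, and its part in the receptor values was not tested. Of 8 macrophage and leukocyte markers, 6 (Ptprc, Aif1, Csf1r, C1qa, C1qb and Lyz2) were at 0 in all pools, as were all 4 mast cell markers and, of 4 endothelial markers, Cdh5 and Cldn5. Of the other macrophage markers, Cd68 was at 93.8 CPM in the first capsaicin-sensitive nodose pool, 22.1 CPM in the first capsaicin-sensitive jugular pool and at most 5.78 CPM elsewhere, and Itgam did not exceed 0.0638 CPM. The 4 vascular mural cell markers summed to 12.93 and 39.61 CPM in the capsaicin-sensitive jugular pools, nearly all from Rgs5 (12.7 and 39.4 CPM, 0 counts in the other pools, called by DESeq2 between capsaicin-sensitive ganglia), and to at most 13.13 CPM elsewhere. Endothelial markers otherwise reached 28.47 CPM in a Trpv1-positive nodose pool, and fibroblast markers reached 296.3 CPM in a capsaicin-sensitive jugular pool. The part of these cell types in the receptor values was not tested. In pools, fewer cells that express a gene and less RNA per cell cannot be told apart.

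The ganglia had different leading receptors. Per kb of exon, Ptgir was the highest of the 8 genes in 6 of 6 nodose pools, with or without Trpv1, and made up 70.7% to 96.6% of the summed CPM per kb. In the jugular pools Ptgdr led in 3 of 4, with 75.3% and 46.4% of the sum in the Trpv1-positive pools and 69.8% in the second capsaicin-sensitive pool. The first capsaicin-sensitive jugular pool was led by Ptger2 (67.7%), with Ptger4 next. The summed CPM per kb of the 8 genes was 9.797 in that pool and 21.73 to 184.9 in the other 9.

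**Figure D1:**
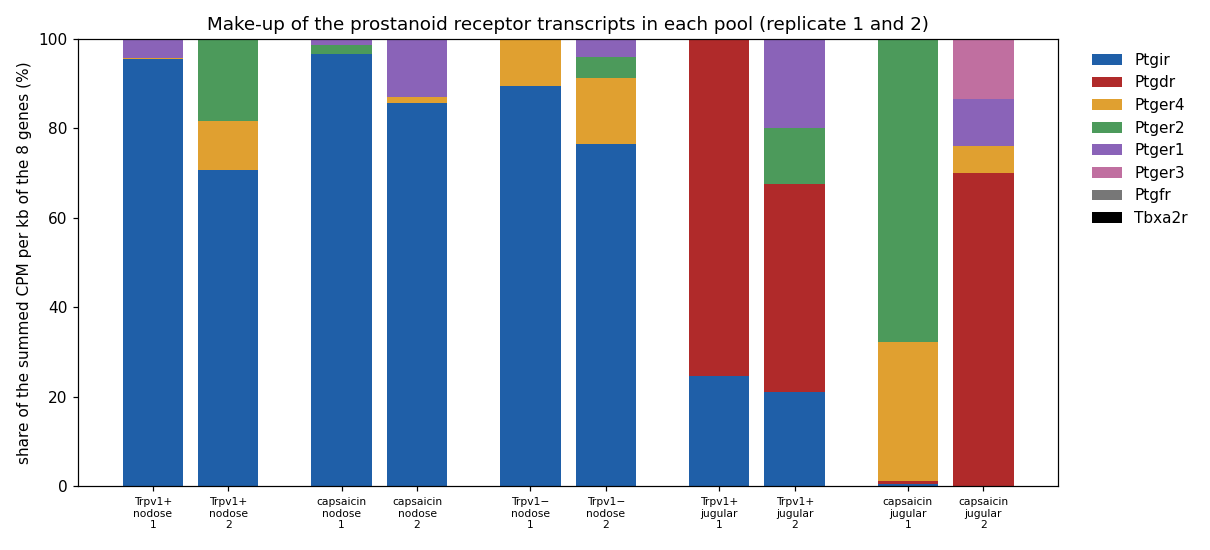
Share of each receptor gene (y axis, percent) in the summed CPM per kb of exon of the 8 prostanoid receptor genes, 1 bar per pool (x axis, replicates 1 and 2 of each group). Ptgir fills 70.7% to 96.6% of the bars of the 6 nodose pools, and Ptgdr is the largest part of 3 of the 4 jugular bars.

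Ptgir, the receptor of prostacyclin, was measured at 109 and 51.2 CPM in the Trpv1-positive nodose pools, at 368 and 528 CPM in the capsaicin-sensitive nodose pools and at 78.5 and 163 CPM in the Trpv1-negative nodose pools. The Trpv1-positive jugular pools had 22.6 and 23.2 CPM. In the capsaicin-sensitive jugular pools only 3 reads each were counted (0.146 and 0.155 CPM), which is at the floor. Every nodose pool was above every jugular pool, and both replicates of each group lay on the same side of 10 CPM. In order of the group means, Ptgir was at 448 ± 113 CPM (SD, n = 2) in capsaicin-sensitive nodose, 121 ± 59.7 in Trpv1-negative nodose, 80.2 ± 40.9 in Trpv1-positive nodose, 22.9 ± 0.454 in Trpv1-positive jugular and 0.150 ± 0.00645 in capsaicin-sensitive jugular neurons. Of these neighbours, the Trpv1-negative and Trpv1-positive nodose pools overlapped and the others did not. Divided by plain totals, the capsaicin-sensitive nodose pools were at 318 and 236 CPM and the Trpv1-negative pools at 104 and 212 CPM, so the first group stayed above the second with a smaller gap. The mean level of Ptgir lay at the 93.6 percentile of the genes with a count in capsaicin-sensitive nodose neurons, at 90.4 in Trpv1-negative nodose, 83.6 in Trpv1-positive nodose and 61.6 in Trpv1-positive jugular neurons.

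Ptgdr, the DP receptor of prostaglandin D, had the reverse pattern. The Trpv1-positive jugular pools held 66.0 and 48.8 CPM (12374 and 9754 counts), and the second capsaicin-sensitive jugular pool held 73.7 CPM (1427 counts). The first capsaicin-sensitive jugular pool had 5 counts (0.243 CPM). In nodose neurons there were 15 and 5 counts in the Trpv1-positive pools, 5 and 5 counts in the Trpv1-negative pools and 0 counts in both capsaicin-sensitive pools, none of them above 0.0956 CPM. So 3 of 4 jugular pools and 0 of 6 nodose pools reached 10 CPM, and in CPM every jugular pool was above every nodose pool, with only 5 counts in the lowest jugular pool. Per kb of exon, Ptgdr in Trpv1-positive jugular neurons (18.01 ± 3.816 CPM per kb, SD, n = 2) was above Ptgir in the same pools (6.869 ± 0.1362 CPM per kb). Exons of the gene model Gm16976, on the opposite strand, cover 705 bases (22.1%) of the Ptgdr exons. Ptgdr2, which encodes the other receptor of prostaglandin D and is not of this gene family, was counted in 1 pool, the first of Trpv1-positive jugular neurons, with 281 counts (1.499 CPM). Of its exonic bases 39% are shared with Ccdc86 on the opposite strand, which had 4882 counts in that pool. Ccdc86 also had 7850 counts in the second Trpv1-negative and 2408 in the first Trpv1-positive nodose pool, where Ptgdr2 had 0 counts. The part of shared bases in the Ptgdr2 count was not tested.

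**Figure D2:**
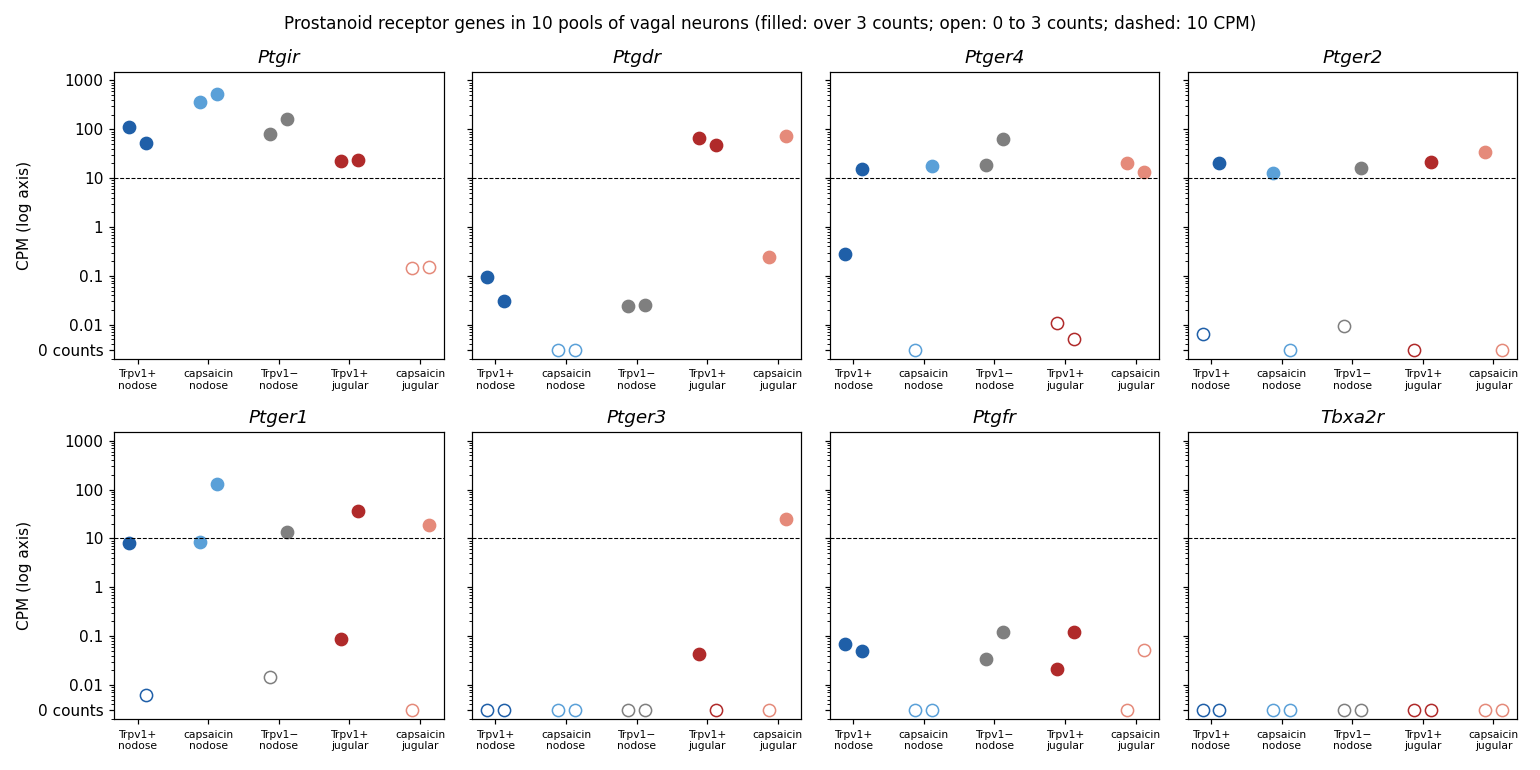
CPM (y axis, log scale) of the 8 prostanoid receptor genes in the 10 pools, 1 panel per gene and 2 points per group (replicate 1 left, replicate 2 right). Filled points have over 3 counts, open points 0 to 3 counts (0 counts are drawn at the bottom), and the dashed line marks 10 CPM. Ptgir lies above 10 CPM in 8 pools and Ptgdr in 3, all of them jugular, while Ptger1 and Ptger2 mostly show 1 high and 1 low pool per group.

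Ptger4, the Gs-coupled EP4 receptor, was found in both ganglia, but in different groups. The Trpv1-negative nodose pools had 18.4 and 62.5 CPM, and the capsaicin-sensitive jugular pools had 20.2 and 13.5 CPM. The Trpv1-positive nodose pools differed between replicates (0.281 and 15.6 CPM), as did the capsaicin-sensitive nodose pools (0 counts and 17.7 CPM). In the Trpv1-positive jugular pools only 2 and 1 counts were found although these are the deepest pools of the series. The Trpv1-positive jugular pools were thus the lowest of the 5 groups apart from the capsaicin-sensitive nodose pool at 0, and the other 4 groups overlapped with their neighbours in the order of means. Those means were 40.4 ± 31.2 CPM (SD, n = 2) in Trpv1-negative nodose, 16.9 ± 4.73 in capsaicin-sensitive jugular, 8.84 ± 12.5 in capsaicin-sensitive nodose and 7.95 ± 10.9 in Trpv1-positive nodose neurons. Of the Ptger4 exons, 1015 bases (15.3%) are shared with the gene model Gm15937 on the opposite strand.

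Ptger2, the other Gs-coupled receptor of prostaglandin E, was present in 1 pool of each of the 5 groups and near 0 in its partner. The high pools were at 20.7 CPM (Trpv1-positive nodose), 21.3 CPM (Trpv1-positive jugular), 12.5 CPM (capsaicin-sensitive nodose), 34.5 CPM (capsaicin-sensitive jugular) and 16.02 CPM (Trpv1-negative nodose). Their partner pools held 0 to 2 counts. The group means of Ptger2 therefore had an SD larger than the mean in each group, and no order of the groups could be read.

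Ptger1, the EP1 receptor, showed the same spread between replicates. It was at 8.03 and 0.00607 CPM in Trpv1-positive nodose, 0.0853 and 36.0 CPM in Trpv1-positive jugular, 8.31 and 131 CPM in capsaicin-sensitive nodose, 0 counts and 19.0 CPM in capsaicin-sensitive jugular and 0.0144 and 13.8 CPM in Trpv1-negative nodose neurons. The library kit does not mark the strand, so reads from overlapping genes cannot be told apart, and the Ptger1 values are uncertain for this reason.

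Ptger3, the Gi-coupled EP3 receptor, was counted in 2 pools, with 489 counts (25.3 CPM) in the second capsaicin-sensitive jugular pool and 8 counts (0.0427 CPM) in the first Trpv1-positive jugular pool. The 6 nodose pools had 0 counts of Ptger3. Ptgfr did not exceed 24 counts (0.120 CPM) in any pool, and was at 0 counts in both capsaicin-sensitive nodose pools. Tbxa2r had 0 counts in all 10 pools, which at these depths allows at most 0.01436 to 0.2174 CPM per pool. These limits cover counting error only.

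The spread between replicates was a feature of the low receptors. In 20 pairs of a receptor gene and a group, at least 1 pool reached 10 CPM, and in 12 of these the other pool was under 1 CPM. Over all genes the same held for 9818 of 39240 pairs (25%). The share depended on the level of the higher pool. Between 10 and 50 CPM it was 11 of 13 pairs for the receptors and 40.4% of 17175 pairs for all genes. Between 50 and 100 CPM it was 1 of 3 against 19.8%, and between 100 and 1000 CPM it was 0 of 4 against 8.92%. The 11 pairs were from Ptger2 (5), Ptger1 (3), Ptger4 (2) and Ptger3 (1), and the pair between 50 and 100 CPM was Ptgdr in capsaicin-sensitive jugular neurons. The pools hold 14 to 30 cells each, and the part of cell number in this spread was not tested.

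**Figure D3:**
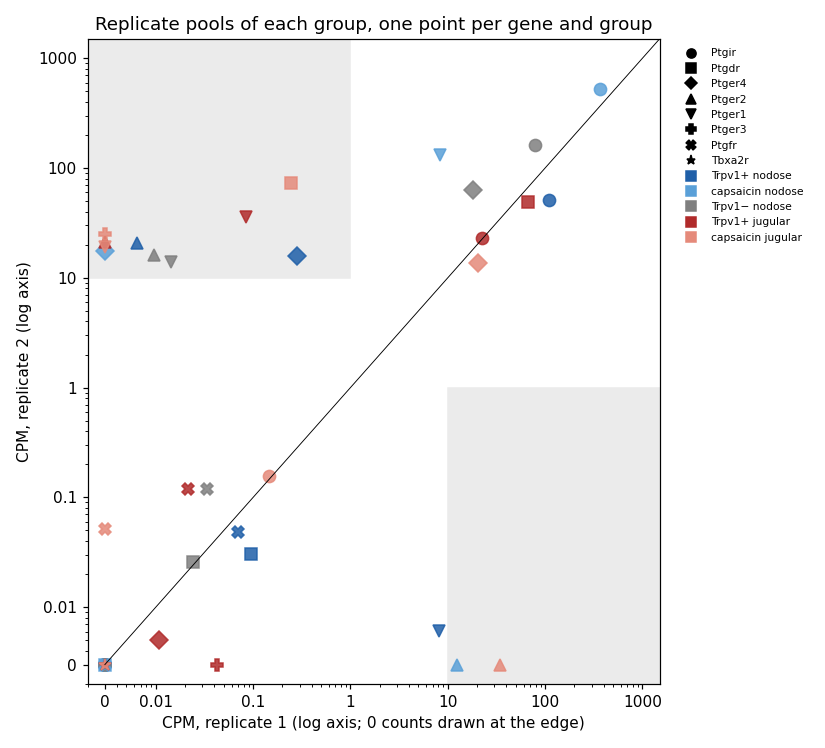
CPM of replicate 2 (y axis) against replicate 1 (x axis), both on log scales, with 1 point per receptor gene (symbol) and group (color) and 0 counts drawn at the edge. Points in the grey areas have at least 10 CPM in 1 replicate and under 1 CPM in the other, which is the case for 12 of the 20 pairs that reach 10 CPM, while the Ptgir points at or above 10 CPM lie near the diagonal.

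The first comparison asks how nodose and jugular C-fiber neurons differ in the Trpv1-tdTomato selection. Ptgir and Ptger4 had their nodose pools above their jugular pools, and Ptgdr had its jugular pools above its nodose pools, without overlap in each case. Among all genes tested, 20.5% had nodose pools above jugular pools without overlap and 21.6% the opposite. In edgeR's quasi-likelihood test the log2 fold change of nodose over jugular was -9.83 ± 2.06 (SE) for Ptgdr (unadjusted p = 0.00452, Benjamini-Hochberg adjusted p = 0.321), 1.796 ± 0.998 for Ptgir (adjusted p = 0.638 in edgeR) and 9.87 ± 3.57 for Ptger4 (adjusted p = 0.377 in edgeR). None of the 6 receptor genes tested by edgeR was called (adjusted p at most 0.1, a fold of at least 2 and at least 10 CPM in both pools of a group), where 0.318% of 10990 genes were. At an unadjusted p under 0.05 the count was 2 of 6, Ptgdr and Ptger4, against 11.9% of all genes. DESeq2, the tool of the study, called 1 receptor gene, Ptgdr (adjusted p = 4.86e-08), and 3.81% of all genes. Ptger4 had an adjusted p of 0.000186 in DESeq2 and was not called, because no group reached 10 CPM in both pools. Over the 10 alternatives the log2 fold change of Ptgdr was -10.85 to -9.24 with an adjusted p of 4.86e-08 to 0.704. The ratio of summed Ptger4 counts over size factors was 1050, with a 95% exact counting interval of 359 to 5100, from 3 counts in the jugular pools, and it rests on the second nodose pool. With 2 pools per group, 0.33 is the smallest p that exact permutation allows. The Trpv1-positive and Trpv1-negative pools came from the same 2 mice, and the labels do not say whether replicates are separate animals, so the p-values measure only the spread between pools.

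The same question in the capsaicin selection gave the largest difference of Ptgir. Its log2 fold change of nodose over jugular was 11.1 ± 1.20 (SE) in edgeR, with an unadjusted p of 0.000189 and an adjusted p of 0.155. The ratio of the summed counts over size factors was 2890 (95% exact counting interval 1330 to 7880), from 14399 counts against 6. None of the 4 receptor genes tested was called by edgeR, and no gene of the 8181 tested was (0%). At an unadjusted p under 0.05 there were 1 of 4 receptor genes, Ptgir, and 14.1% of all genes. DESeq2 called Ptgir (adjusted p = 4.91e-05) and 7.44% of all genes. Ptgir was called under 5 of 9 alternatives, and its log2 fold change over them was 11.02 to 11.28 with an adjusted p of 1.09e-05 to 0.166. Its groups did not overlap, which was so with nodose higher for 18.8% of all genes. Ptger4 (log2 fold change -1.45 ± 3.28), Ptger1 (2.32 ± 3.38) and Ptger2 (-1.59 ± 4.09) had errors larger than their differences and overlapping pools. Ptgdr did not pass edgeR's filter on low counts here, because it rested on 1 jugular pool. In DESeq2 its adjusted p was 0.00413, and that of Ptger3, which also rested on 1 jugular pool, was 9.81e-09. Neither was called, because no group reached 10 CPM in both pools.

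The comparison of Trpv1-positive with Trpv1-negative nodose neurons, which differ in the reporter but share the ganglion and the mice, found no receptor called by edgeR among the 5 tested, where 0.0527% of 11386 genes were. At an unadjusted p under 0.05 the count was 0 of 5, against 11.1% of all genes, and DESeq2 called 0 receptor genes and 2.63% of all genes. The log2 fold change of Ptgir (positive over negative) was -0.55 ± 0.70 (SE, adjusted p = 0.918 in edgeR), with overlapping pools. Ptger4 was higher in both Trpv1-negative pools than in both Trpv1-positive pools, which was so in this direction for 22.4% of all genes, and its log2 fold change was -2.29 ± 2.17 (adjusted p = 0.863 in edgeR). Trpv1, which defined the groups, was called, with a log2 fold change of 12.20 (adjusted p = 0.07 in edgeR).

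Trpv1-positive jugular neurons were also set against Trpv1-negative nodose neurons. These pools are shared with the comparisons above, so the values are not independent of them. Ptgdr was higher in jugular neurons (log2 fold change 11.16 ± 1.72, adjusted p = 0.186 in edgeR), and Ptger4 (-12.18 ± 2.37, adjusted p = 0.288) and Ptgir (-2.37 ± 0.68, adjusted p = 0.288) were higher in Trpv1-negative nodose neurons, by values that did not pass the test. The pools of these 3 genes did not overlap, which was so for 20.7% of all genes with jugular higher and 23.4% with nodose higher. No receptor of the 6 tested was called by edgeR (0.226% of 11506 genes were), 3 of 6 had an unadjusted p under 0.05 (12.9% of all genes), and DESeq2 called 2, Ptgdr (adjusted p = 4.48e-22) and Ptger4 (adjusted p = 1.07e-12), with 4.19% of all genes. Over 10 alternatives the adjusted p was 4.48e-22 to 0.659 for Ptgdr and 1.07e-12 to 0.659 for Ptger4. The ratio of summed Ptger4 counts over size factors was 5110 (95% exact counting interval 1750 to 24800).

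**Figure D4:**
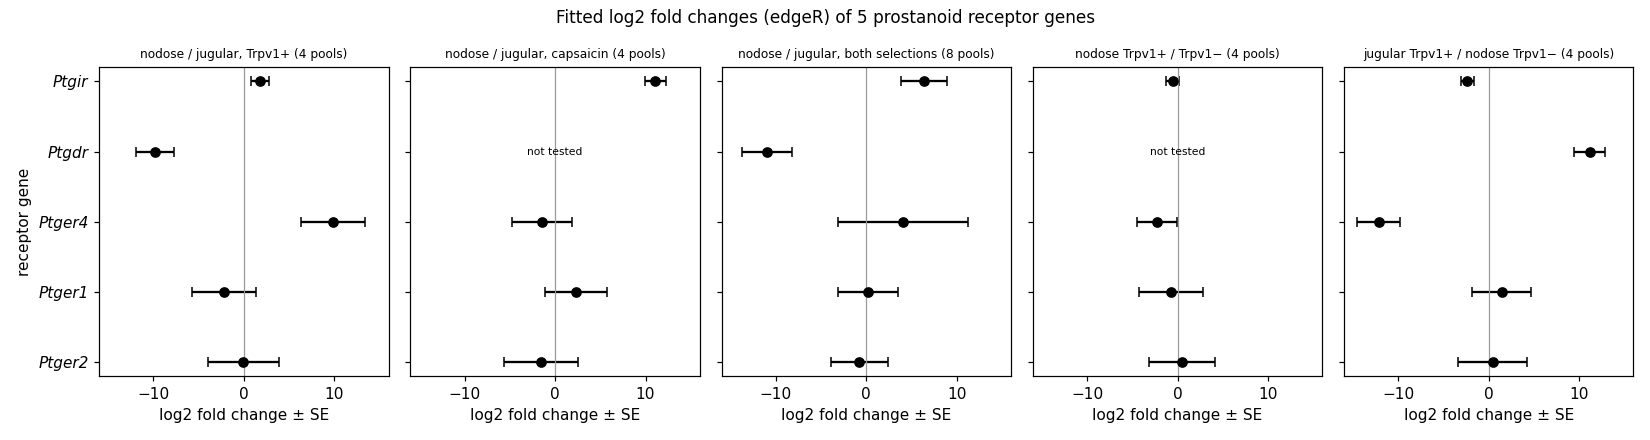
Log2 fold changes fitted by edgeR (x axis; points, with bars of 1 SE) of 5 receptor genes (y axis) in 5 comparisons of nodose and jugular pools, where the heading of each panel names the first over the second group. Ptgir lies right of 0 and Ptgdr left of 0 in the nodose over jugular panels where they were tested, while the bars of Ptger1 and Ptger2 cross 0 in all 5 panels.

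Both selections were then fitted together, with the selection as a covariate and 8 pools. The log2 fold change of nodose over jugular was 6.35 ± 2.53 (SE) for Ptgir (unadjusted p = 0.0299, adjusted p = 0.385 in edgeR) and -11.02 ± 2.77 for Ptgdr (unadjusted p = 0.00242, adjusted p = 0.2 in edgeR). Ptger4 had 4.09 ± 7.17. None of 5 receptor genes was called by edgeR, where 0.577% of 11959 genes were, and 2 of 5 had an unadjusted p under 0.05, against 11.1%. DESeq2 called Ptgir (adjusted p = 0.000517) and Ptgdr (adjusted p = 2.39e-08), with 8.84% of all genes. Over 13 alternatives the log2 fold change was 3.36 to 9.42 for Ptgir, with an adjusted p of 0.000517 to 0.661, and -11.91 to -9.53 for Ptgdr, with an adjusted p of 2.39e-08 to 0.535. Without the filter on low counts edgeR called both.

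Whether the difference between ganglia itself differed between the selections was tested as an interaction. For Ptgir the log2 difference between nodose and jugular neurons was smaller in the Trpv1-tdTomato selection by a fitted -9.28 ± 1.62 (SE, unadjusted p = 0.00024, adjusted p = 0.265 in edgeR). For Ptger4 it was 11.23 ± 5.58 (unadjusted p = 0.074), with nodose above jugular in one selection and overlapping pools in the other. No receptor of 5 and no gene of 11959 (0%) was called by edgeR, 1 of 5 receptor genes and 10.3% of all genes had an unadjusted p under 0.05, and DESeq2 called Ptgir (adjusted p = 2.92e-09) and Ptger4 (adjusted p = 0.0274) with 9.01% of all genes. Over 13 alternatives the adjusted p was 2.92e-09 to 0.786 for Ptgir and 0.0274 to 1 for Ptger4. In the direct comparison of the Trpv1-tdTomato with the capsaicin selection the median log2 fold change of all genes was 1.04, and 5.84% of genes were called by edgeR but 0 of 5 receptor genes. None of the 5 had an unadjusted p under 0.05 (20.8% of all genes did), and DESeq2 called Ptger4 (adjusted p = 0.0549, over 13 alternatives 0.0549 to 0.936) with 17.2% of all genes. Relative to that median, Ptgir (2.76 ± 3.08) and Ptgdr (2.22 ± 2.07) differed by less than their errors. For Ptgir this value averages opposite differences in the ganglia. Its nodose pools were at 368 and 528 CPM in the capsaicin selection against 109 and 51.2 CPM in the Trpv1-tdTomato selection. Its jugular pools were at 0.146 and 0.155 CPM against 22.6 and 23.2 CPM.

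Genes that make prostanoids were measured at very different levels. Of 13 synthesis genes, 5 were at 0 in all pools, where 33.5% of all symbols were. These 5 were Ptgs1 and Ptgs2 (the cyclooxygenases), Pla2g4a (the phospholipase that frees arachidonic acid), Ptgis (prostacyclin synthase) and Akr1b3. The highest were Ptges3 (a co-chaperone also known as a prostaglandin E synthase, 205.7 to 27050 CPM), Fam213b (a prostaglandin F synthase, 19.68 to 250.3 CPM) and Cbr1 (a carbonyl reductase, 13.74 to 168.5 CPM). Of the 5 to 7 synthesis genes tested, edgeR and DESeq2 called 0 in each comparison between ganglia or reporter groups and in the interaction. An unadjusted p under 0.05 in edgeR was found for 2 of them, Ptges and Ptgds (named for this after their values were seen), between the ganglia of Trpv1-positive neurons and over both selections, and for 0 in the other comparisons of this kind. This was 2 of 7 tested each time, against 11.9% of all genes in the first of these comparisons and 11.1% in the second. EdgeR called 1 synthesis gene, Ptges3, as lower in the Trpv1-tdTomato selection (log2 fold change -4.67 ± 0.49, adjusted p = 0.000484). Ptges3 is known to have processed pseudogenes, so its counts are uncertain. Of 5 transport and breakdown genes, Ptgr2 (0 to 38.39 CPM), Abcc4 (0 to 44.47 CPM) and Ptgr1 (0 to 42.78 CPM) were the highest, and Ptgr1, a prostaglandin reductase, was called by edgeR in the comparison of selections, with 10.3 to 42.8 CPM in the 4 Trpv1-positive pools and 0 counts in the 4 capsaicin-sensitive pools. DESeq2 called Ptgr1 there and between Trpv1-positive jugular and Trpv1-negative nodose neurons, and it called Ptgr2 between capsaicin-sensitive ganglia, between the selections and in the interaction.

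Downstream of the receptors, the genes called between the ganglia included 2 G-protein alpha subunits. Of 20 genes of the Gs and cAMP pathway, 14 were tested in the Trpv1-tdTomato selection and 1, Gnas, was called by edgeR, where 0.318% of all genes were. Gnas encodes the Gs alpha subunit and was at 6761 and 6276 CPM in the Trpv1-positive nodose pools and at 2195 and 2020 CPM in the Trpv1-positive jugular pools (log2 fold change 1.62 ± 0.10, adjusted p = 0.0196 in edgeR, and adjusted p = 0.625 in DESeq2). In the capsaicin selection the Gnas level was 1846 and 2759 CPM for the nodose pools and 798 and 822 CPM for the jugular pools (log2 fold change 1.13 ± 0.46, adjusted p = 0.36 in edgeR). The Trpv1-negative nodose pools had 2816 and 3036 CPM of Gnas, nearer to the Trpv1-positive jugular than to the Trpv1-positive nodose pools. Between the nodose groups Gnas had an unadjusted p under 0.05 in edgeR, as did 11.1% of all genes, and was not called. Next in level were Prkar1a (351.1 to 2967 CPM) and Prkar1b (292.5 to 806.6 CPM), regulatory subunits of protein kinase A, and Prkar1a was called as lower in the Trpv1-tdTomato selection. The median log2 fold change of the tested genes of this pathway was 0.34 in the Trpv1-tdTomato selection, against 0.03 for all genes. It was -1.1 in the capsaicin selection (all genes -0.02) and -0.54 over both selections (all genes -0.18), so its sign was not shared. Between capsaicin-sensitive ganglia DESeq2 called Adcy9 and Prkar2b, and 7.44% of all genes. Adcy9 was at 14.8 and 20.7 CPM in the jugular pools and at 0 in the nodose pools. Prkar2b was at 91.4 and 568 CPM against 0.145 and 10.1 CPM.

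Of 21 genes of the Gq, Gi and G12/13 pathways, 20 were tested in the Trpv1-tdTomato selection and 1, Gna14, was called by edgeR, against the same 0.318% of all genes. Gna14 encodes an alpha subunit of the Gq class and was at 149 and 188 CPM in the Trpv1-positive jugular pools, at 425 and 362 CPM in the capsaicin-sensitive jugular pools and at or under 0.290 CPM in all 6 nodose pools. Its log2 fold change of nodose over jugular was -11.80 ± 1.06 in the Trpv1-tdTomato selection (adjusted p = 0.0453 in edgeR) and -10.96 ± 1.11 in the capsaicin selection (adjusted p = 0.155 in edgeR, 8.68e-05 in DESeq2). Unlike Ptgdr, Gna14 was high in all 4 jugular pools. The highest genes of this list were Gnao1 (215.6 to 920.3 CPM), Gnaq (44.02 to 870.8 CPM) and Prkcd (8.416 to 450.0 CPM), and Gnaq was called as lower and Gnai2 as higher in the Trpv1-tdTomato than in the capsaicin selection. The median log2 fold change of the 20 tested genes was -0.24 (nodose over jugular, Trpv1-tdTomato selection).

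Of 9 genes of receptor desensitization, which include kinases, arrestins and RGS proteins, Rgs4 (210.4 to 3850 CPM), Arrb1 and Adrbk1 were the highest. Rgs4, which speeds the turn-off of Gq and Gi signals, was called as higher in jugular neurons over both selections (log2 fold change -2.03 ± 0.41, adjusted p = 0.092 in edgeR), at 626 and 846 CPM against 362 and 210.4 CPM in the Trpv1-positive pools and at 2115 and 3850 CPM against 375 and 766 CPM in the capsaicin-sensitive pools. The Trpv1-negative nodose pools, which were not in that fit, had 740.4 and 965 CPM of Rgs4 and overlapped with the Trpv1-positive jugular pools. Other genes of this list went the opposite way. DESeq2 called Rgs2 between Trpv1-positive ganglia (3.81% of all genes), at 84.5 and 104 CPM in nodose and at most 0.0107 CPM in jugular pools. In the capsaicin selection Rgs2 was at most 0.0725 CPM in nodose pools and at 0 and 29.9 CPM in jugular pools. DESeq2 also called Grk4, with higher nodose means, over both selections (8.84% of all genes). Of 11 channels that prostanoid signals are known to sensitize, Scn9a (43.68 to 663.1 CPM), Scn10a (73.87 to 813.6 CPM) and P2rx3 (96.49 to 500.1 CPM) were the highest. Trpv1, also on this list, had a log2 fold change of nodose over jugular of 2.86 ± 0.64 in the Trpv1-tdTomato selection (adjusted p = 0.321 in edgeR), with the nodose pools at 250.5 and 146 CPM and the jugular pools at 22.1 and 31.9 CPM. Hcn2 was called as higher in the Trpv1-tdTomato selection, with 10.3 to 53.6 CPM against 0 counts in the capsaicin-sensitive pools.

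The genes with the pattern most like each receptor were ranked among 7841 genes by the root mean square difference of log2(CPM + 1), centered per gene, over the 10 pools. These distances are descriptions over pools that share cells, depth and batch with the receptors. For Ptgdr they were Prmt8 (0.345), Kcnip1 (0.477) and D130009I18Rik (0.599), against an SD of 2.85 of Ptgdr itself. Each was above 10 CPM in the same 3 jugular pools as Ptgdr and had 0 counts in the first capsaicin-sensitive jugular pool. For Ptgir they were Cidea (0.973), S1pr3 (1.01) and Th (1.07), against an SD of 3.07. S1pr3, a receptor of sphingosine-1 phosphate, was at 173 to 962 CPM in the 6 nodose pools, 71.0 and 14.8 CPM in the Trpv1-positive jugular pools and 0.194 and 0.0516 CPM in the capsaicin-sensitive jugular pools. Th encodes tyrosine hydroxylase, the enzyme that starts catecholamine synthesis, and its 2 highest pools, at 827 and 850 CPM, were the capsaicin-sensitive nodose pools, as for Ptgir. Unlike Ptgir, Th was higher in the Trpv1-positive jugular pools (53.8 and 129 CPM) than in the Trpv1-negative nodose pools (44.0 and 49.6 CPM). Those jugular pools overlapped with the Trpv1-positive nodose pools (144 and 71.9 CPM). For Ptger4 they were Rnmtl1 (0.586), Tshz3 (1.07) and Srd5a3 (1.29), against an SD of 2.33.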

How the data were processed

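RNA from 10 pools of 14 to 30 mouse neurons was amplified with a low-input SMARTer kit by the authors and sequenced. Per the labels and the submitters' processing notes, reads were processed with CASAVA 1.8.2, aligned to mm10 with TopHat2 2.0.9 and Bowtie2 2.1.0.0 and counted with HTSeq, and the values the authors deposited are raw counts for each symbol, not normalized. The counting annotation and strand setting are not given in the sources used here. Amplified reads without molecular identifiers are not independent molecules, so floors and intervals cover counting error only.

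Counts were fitted with edgeR 4.0.16 in R 4.3.3 (TMM, filterByExpr, glmQLFit, glmQLFTest, Benjamini-Hochberg over all genes tested), on the 4 pools of each pair of groups or on the 8 pools of both selections. The call needed adjusted p 0.1 or less, a fold of at least 2 and at least 10 CPM in both pools of a group. The SE was taken as the log2 fold change divided by the root of F. CPM used DESeq2 1.42.0 size factors of all 10 pools. Alternatives were DESeq2 (Wald), no filter, other size factors, no CPM minimum, a replicate block, all 6 pools of the Trpv1-tdTomato selection and leaving out each pool. The scripts were tested on simulated counts. Exons came from GENCODE vM21 (GRCm38) and promoters from RefSeq (GRCm38.p6, 3 of 3 genes matched). Figures were drawn in Python 3.11.15.

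The 8 receptors, the pathway and marker lists and the tests were chosen with earlier results of these data known. Named were all receptors, Ptgdr2, from each pathway list the 3 genes with the highest mean CPM and those called by edgeR, summed markers, and the 3 genes most like each receptor with at least 10 CPM in both pools of a group. Some pathway genes called by DESeq2 were named as well. A spreadsheet had turned 27 symbols into dates, none of them a receptor. The authors' own tables of comparisons were not used. Some values of the lists are not reported here.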

Additional observations from a re-analysis of the deposited data

How the results depend on the processing

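The directions of the receptor fold changes held in most alternatives. The alternative without the CPM minimum reuses the main fit, so its values, counted below as unchanged, could not differ from the main ones. Of 205 alternative values for Ptgir, Ptgdr and Ptger4, 184 kept direction and call, 17 kept the direction and became called, and 4 changed sign. The sign changed for Ptgir between Trpv1-positive and Trpv1-negative nodose neurons without the second Trpv1-negative pool (0.00625 on the log2 scale, with a range of -1.17 to 0.00625 over the pools left out), for Ptgir between the selections without the first (-0.38) or the second (-0.23) capsaicin-sensitive jugular pool (range -0.38 to 5.74), and for the interaction of Ptgdr without the second capsaicin-sensitive jugular pool (-2.30, range -2.30 to 5.74). None of these values was called.

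With DESeq2 the number of genes called was 506 instead of 35 between Trpv1-positive ganglia, 800 instead of 0 between capsaicin-sensitive ganglia, 372 instead of 6 between Trpv1-positive and Trpv1-negative nodose neurons, 594 instead of 26 between Trpv1-positive jugular and Trpv1-negative nodose neurons, 1217 instead of 69 between ganglia over both selections, 2366 instead of 698 between selections and 1186 instead of 0 for the interaction. The receptors called were then 1, 1, 0, 2, 2, 1 and 2 instead of 0. Without the filter on low counts edgeR called 59, 122, 10, 47, 222 and 95 genes in the same order without the comparison of selections, with 1 receptor between capsaicin-sensitive ganglia, 2 over both selections and 1 in the interaction. With all 6 pools of the Trpv1-tdTomato selection in the fit, 71 and 15 genes were called between Trpv1-positive ganglia and between the nodose groups. The cause of these differences was not tested.

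Deviations of pools with the same replicate number did not correlate (r from -0.02665 to 0.01611 over 7842 genes). A pairing effect that is small against the spread between pools would not show here, so this cannot decide whether the numbers pair the pools. With a replicate block 13, 20, 1 and 2 genes were called in the 4 comparisons of 2 against 2 pools, and Ptgir (1 receptor) between capsaicin-sensitive ganglia, with an adjusted p of 0.0984.

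Leaving out each pool gave 0 to 0 genes between Trpv1-positive ganglia, 0 to 26 between capsaicin-sensitive ganglia, 0 to 0 between the nodose groups, 1 to 2 between Trpv1-positive jugular and Trpv1-negative nodose neurons, 38 to 88 over both selections, 414 to 739 between selections and 0 to 194 for the interaction. The largest interaction count, 194, came without the first capsaicin-sensitive nodose pool. The receptors called ranged from 0 to 1 between capsaicin-sensitive ganglia (1, Ptgir, without the first nodose or the first jugular pool) and from 0 to 1 for the interaction (1, Ptgir, without the first capsaicin-sensitive nodose pool), and were 0 otherwise. Fits with a lone pool in a group assume that it varies like the other groups. The number of pairs of a receptor gene and a group with at least 10 CPM in both pools, 7, was the same with plain totals and without Rn45s. In the capsaicin selection the lower depth limits what can be told from 0 to about 0.1458 CPM or more.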
